A study of Mus musculus with 37 samples.

Results

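The 46 genes described here are mouse genes with canonical genomic imprints, chosen by symbol from a list and looked up in 2 expression tables of 55401 genes each. All 46 were found in both tables. From textbook knowledge, 24 are expressed from the paternal allele, 12 from the maternal allele, and 10 are imprinted only in some isoforms or tissues. Genomic imprinting is the expression of a gene from a single parental allele. A canonical imprint is DNA methylation laid down in the egg or the sperm at a control region, which the embryo keeps through early development while most other methylation is erased. Many of the genes control growth of the fetus and placenta, and they sit in clusters where a control region often drives a long non-coding RNA that silences its neighbours.

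The samples came from a mouse model in which Bap1, the gene of a deubiquitinase that takes ubiquitin off histone H2A, was deleted in oocytes. Knockout females carried the Gdf9-iCre transgene, which is active in oocytes, on a Bap1 flox/flox background, and control females were Bap1 flox/flox without the transgene. Both groups of females therefore carried the floxed alleles, and embryos of knockout females received an intact paternal Bap1 allele. Total RNA libraries were made from full-grown oocytes (FGO), eggs arrested at metaphase of meiosis II (MII), late 1-cell embryos (L1C), early 2-cell embryos (E2C) and late 2-cell embryos (L2C), the embryos fathered by B6 males. Each stage had 2 control and 3 knockout libraries, except E2C, which had 3 of each. Poly(A) RNA libraries were made from embryos at embryonic day 6.5 (E6.5) fathered by PWK males: epiblast (EPI) and visceral endoderm (VE) with 2 control and 2 knockout libraries each, and extraembryonic ectoderm (EXE) with 1 control and 2 knockout libraries. The labels do not say that replicates came from separate females or litters, so p-values measure the spread between these libraries. Values are FPKM, mapped fragments scaled to transcript length and to the size of the library. They add up both alleles, so output from a normally silent allele and a higher output from the active one cannot be told apart. In bulk samples, fewer cells of a type and less RNA per cell cannot be told apart either.

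The methylated control regions are recognised by the zinc finger protein ZFP57, which binds the hexamer TGCCGC when it is methylated and recruits TRIM28 to keep the imprint. RefSeq promoter windows on GRCm38.p6, each of 300 bases (250 before and 50 after a transcript start), were used for 37 of the 46 genes. Those without one among the windows used were H19, Peg10, Sgce, Cdkn1c, Kcnq1, Impact, Rtl1, Trappc9 and Kcnk9. Windows on the chromosome of Impact were left out for the members but kept in the share of all genes. The hexamer, read on either strand as TGCCGC or GCGGCA, stood in a window of 14 of the 37 genes (37.8%) and of 13.1% of all 27025 genes in the table. Snrpn and Snurf share the window that holds it and are counted separately. By window, the shares were 28.3% of member windows and 11.6% of all windows. Member windows also held more CpG, with a median of 15 a window against 7 over all windows, and the hexamer itself contains a CpG. The part of base composition in the difference was not tested. By class, 9 of 20 paternally expressed, 2 of 8 maternally expressed and 3 of 9 isoform- or tissue-restricted genes held it. A match is a description of the letters and no evidence of binding. Whether a window lies in a control region was not tested, and Mest, Grb10 and Snrpn also have windows without the hexamer. The next 4 windows are shown because they hold the hexamer, in capitals, at genes whose values stand out below.
Mest promoter, chr6:30737800-30738099, plus strand: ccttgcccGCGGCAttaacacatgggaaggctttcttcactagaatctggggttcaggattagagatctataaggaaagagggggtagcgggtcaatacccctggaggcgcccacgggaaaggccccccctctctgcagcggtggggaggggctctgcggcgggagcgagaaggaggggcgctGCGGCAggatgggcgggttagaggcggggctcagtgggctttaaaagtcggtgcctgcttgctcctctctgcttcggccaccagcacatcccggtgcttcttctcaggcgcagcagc
Plagl1 promoter, chr10:13090582-13090881, plus strand: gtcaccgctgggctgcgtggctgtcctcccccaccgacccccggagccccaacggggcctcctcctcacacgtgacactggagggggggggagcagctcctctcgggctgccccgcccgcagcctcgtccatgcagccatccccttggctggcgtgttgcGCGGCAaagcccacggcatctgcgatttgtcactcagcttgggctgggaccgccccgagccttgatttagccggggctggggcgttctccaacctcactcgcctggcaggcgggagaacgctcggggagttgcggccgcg
Grb10 promoter, chr11:12037371-12037670, minus strand: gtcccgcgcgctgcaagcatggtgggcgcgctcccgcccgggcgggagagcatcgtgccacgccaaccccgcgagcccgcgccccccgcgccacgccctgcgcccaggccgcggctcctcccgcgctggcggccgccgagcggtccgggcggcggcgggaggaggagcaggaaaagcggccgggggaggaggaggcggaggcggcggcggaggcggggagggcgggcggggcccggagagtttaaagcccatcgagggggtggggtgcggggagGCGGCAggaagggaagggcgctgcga
Snrpn promoter, shared with Snurf, chr7:60005150-60005449, minus strand: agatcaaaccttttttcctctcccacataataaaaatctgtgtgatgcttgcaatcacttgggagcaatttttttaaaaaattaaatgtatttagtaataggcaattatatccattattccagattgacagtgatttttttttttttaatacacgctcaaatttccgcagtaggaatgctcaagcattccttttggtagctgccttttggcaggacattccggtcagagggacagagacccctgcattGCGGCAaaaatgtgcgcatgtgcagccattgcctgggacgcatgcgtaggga

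Of the 8 imprinted genes that were higher in knockout L2C embryos (below), 6 had a window among those used and 2 of these held the hexamer, namely Mest and Copg2. All 4 genes that were lower had a window, and none of these held it, which says only that these letters are not in that stretch. The windows of Usp29 and Zrsr1 are shown as the pair with the lowest knockout values relative to control at that stage. The Usp29 window overlaps that of Peg3 on the opposite strand, since both genes start from a shared bidirectional promoter.
Usp29 promoter, chr7:6730333-6730632, plus strand: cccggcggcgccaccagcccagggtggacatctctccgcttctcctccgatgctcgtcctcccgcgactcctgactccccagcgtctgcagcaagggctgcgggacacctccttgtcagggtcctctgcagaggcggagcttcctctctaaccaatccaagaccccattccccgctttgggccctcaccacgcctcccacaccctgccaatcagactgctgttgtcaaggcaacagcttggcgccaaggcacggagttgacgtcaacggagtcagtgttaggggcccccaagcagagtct
Zrsr1 promoter, chr11:22971755-22972054, plus strand: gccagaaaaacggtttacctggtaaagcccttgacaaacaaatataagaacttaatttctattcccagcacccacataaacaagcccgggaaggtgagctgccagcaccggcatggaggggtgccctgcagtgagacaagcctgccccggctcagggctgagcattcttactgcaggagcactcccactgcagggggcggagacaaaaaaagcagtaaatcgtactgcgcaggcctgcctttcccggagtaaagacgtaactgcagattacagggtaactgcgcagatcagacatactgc

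Across the early libraries, 10353 to 11942 genes reached 1 FPKM, and across the E6.5 libraries 10476 to 12459. Bap1 itself was at 16.3 to 29.9 FPKM in the early controls and 3.76 to 11.7 FPKM in the early knockouts, with no overlap at any stage. At E6.5 the knockouts did not fall below the controls (14.0 to 22.6 FPKM in the controls, 18.3 to 33.8 FPKM in the knockouts). A paternal allele was present in these embryos and in the L1C, E2C and L2C embryos alike, and its part was not tested. The summed level of 10 cumulus and granulosa cell markers was 7.51 to 9.04 FPKM in control and 3.05 to 4.18 FPKM in knockout FGO, against 2524 to 2857 FPKM for 6 oocyte markers. It was lower in the knockout at every early stage, embryos included (4.36 to 6.06 against 1.49 to 1.95 FPKM at E2C), and Cyp19a1 was the only gene of the list to reach 1 FPKM before L2C. Pou5f1, an epiblast marker, was at 274 to 694 FPKM in EPI and at most 0.213 FPKM in VE. The sum of the 6 epiblast markers it belongs to did not mark EPI alone. It was 1128 to 1601 FPKM in EPI, 462 to 583 FPKM in EXE and 47.9 to 159.0 FPKM in VE. Elf5, an EXE marker, was at 135 to 184 FPKM in EXE, and Ttr, a VE marker, at 609 to 1785 FPKM in VE. The labels used here give no sex for the E6.5 embryos. In each E6.5 group of 2 libraries, the summed level of 4 Y-linked genes was 0 in 1 library and 38.1 to 68.0 FPKM in the other. Control replicate 1 and knockout replicate 2 held the signal in every lineage, as did the lone EXE control (25.9 FPKM), so that EPI and VE groups each had 1 library of either kind.

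Which imprinted genes could be measured differed between the tables. Among total RNA libraries, 27 of the 46 reached 1 FPKM in at least 2 of 26 libraries, and among poly(A) libraries 37 did so in at least 2 of 11. Both sets shared 23 genes. Usp29, Zim1, Kcnq1 and Plagl1 passed in the early table alone. The 14 that passed at E6.5 alone were H19, Igf2, Sgce, Snurf, Ndn, Magel2, Mkrn3, Kcnq1ot1, Slc22a18, Dlk1, Meg3, Mirg, Ddc and Zdbf2. Nap1l5, Peg12, Rtl1, Rasgrf1 and Kcnk9 passed in neither. Mkrn3 was listed at 0 in all 26 early libraries, and H19, the growth-restraining non-coding RNA opposite Igf2, did not exceed 0.295 FPKM there. The authors' tables carry no read counts, so the depth behind a low value is unknown.

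**Figure D1:**
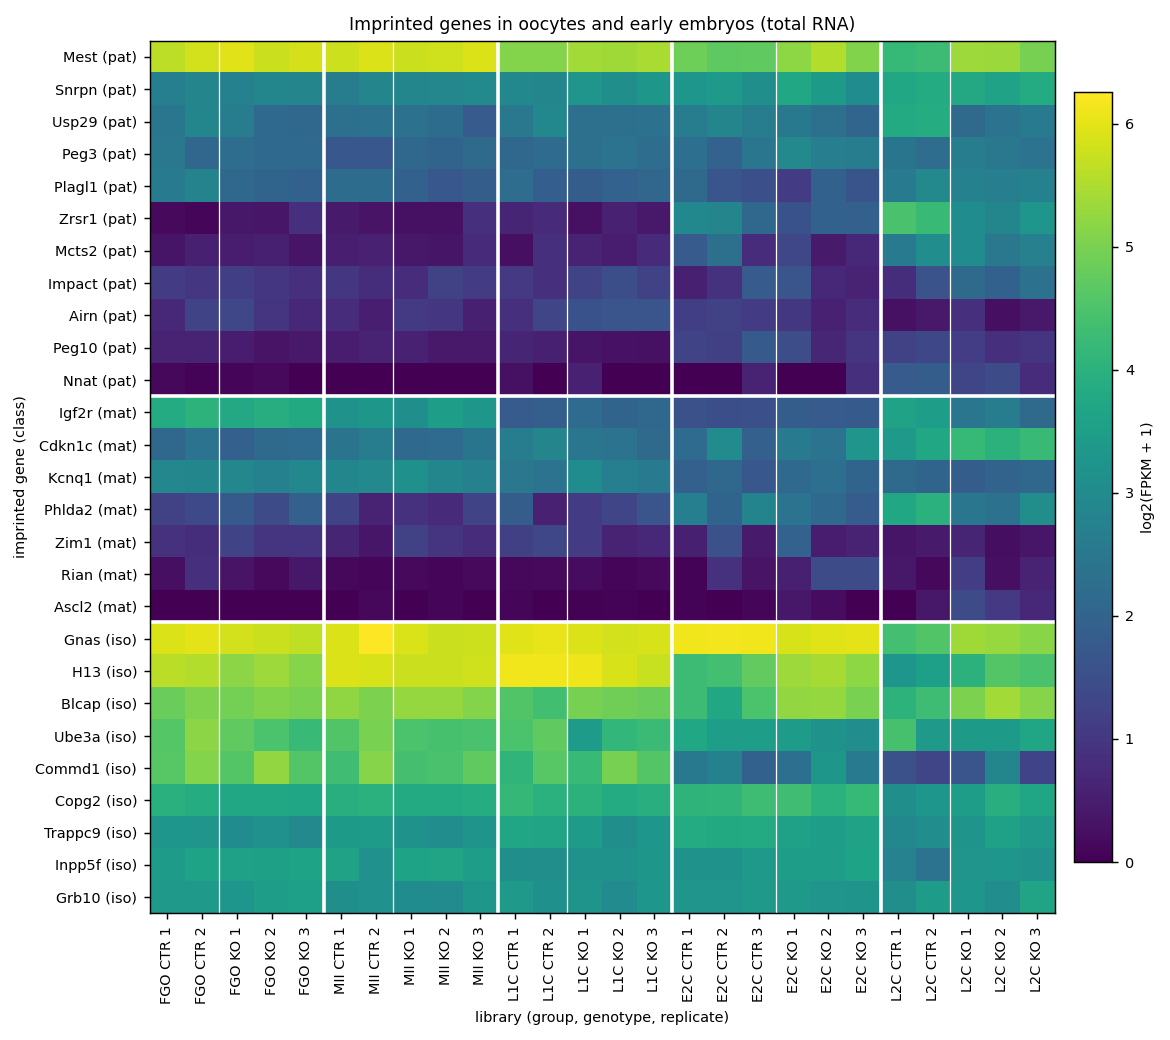
Heatmap of log2(FPKM + 1) for the 27 imprinted genes that reached 1 FPKM in at least 2 early libraries, with 1 column per library (CTR control, KO knockout, then the replicate number) and genes grouped as paternally expressed (pat), maternally expressed (mat) or imprinted in some isoforms or tissues (iso). Mest, Gnas and H13 are the brightest rows in oocytes, and Zrsr1 and Phlda2 brighten at L2C, more in the controls.

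In control oocytes and embryos, Mest, Gnas and H13 transcripts were abundant in the oocyte and lower at L2C, whereas Zrsr1, Phlda2, Mcts2 and Nnat were low until the 2-cell stage and then rose. Other members followed neither course: Grb10 stayed at 7.54 to 10.0 FPKM in every control library, and Igf2r fell and returned. The main wave of transcription from the embryo's own genome in the mouse falls at the late 2-cell stage. From FGO to MII, 1 of 21 tested members changed, where 4.22% of all genes did. This was Igf2r, the receptor that clears the growth factor IGF2, which fell by 0.71 ± 0.12 on the log2(FPKM + 1) scale (SE; limma, Benjamini-Hochberg adjusted p = 0.011). From MII to L1C, 5 of 21 changed against 27.7% of all genes. Igf2r fell by 1.40, Mest by 0.76 and Blcap by 0.66, and the zinc finger genes Peg3 and Zim1 rose by 0.44 and 0.73. From L1C to E2C, 8 of 25 changed against 48.8%. Zrsr1 rose by 1.92, Phlda2 by 1.31, Mcts2 by 1.06 and Peg10 by 0.82, while Commd1 fell by 1.94, H13 by 1.64, Ube3a by 1.03 and Kcnq1 by 0.52. From E2C to L2C, 16 of 27 changed, where 54.6% of all genes did, with 9 members rising and 7 falling (30.7% and 23.9% of all genes). The risers were Igf2r (2.04), Zrsr1 (1.72), Nnat (1.62), Phlda2 (1.37), Mcts2 (1.20), Cdkn1c (1.17), Usp29 (1.13), Plagl1 (0.96) and Snrpn (0.53). Those that fell were Gnas (-1.66), H13 (-1.06), Copg2 (-0.95), Trappc9 (-0.83), Airn (-0.82), Inpp5f (-0.68) and Mest (-0.53). In the last step, 6 of 11 tested paternally expressed genes and 3 of 7 maternally expressed ones rose, and 5 of 9 isoform- or tissue-restricted genes fell. These splits depended on the scaling, which moved the median of all genes by up to 0.23. With each library centred on its median, 7 members rose and 3 fell from MII to L1C, 8 rose and 3 fell from L1C to E2C, and 7 rose and 8 fell from E2C to L2C. With values rescaled to TPM (transcript shares scaled to a fixed total per library), 3 rose and 7 fell from L1C to E2C and 7 rose and 8 fell from E2C to L2C.

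Igf2r showed the decline and return by library. Control FGO held 13.4 and 15.7 FPKM, control MII eggs 8.10 and 8.94, control L1C embryos 2.498 and 2.694, control E2C embryos 1.92, 1.86 and 1.86, and control L2C embryos 11.2 and 10.4 FPKM. The oocyte and L2C levels were thus separated by a trough in which every control library lay below 3 FPKM. Leaving out 1 library ended several of these calls. The fall of Igf2r from FGO to MII was lost without FGO control replicate 2 or MII control replicate 1 (adjusted p up to 0.107). From MII to L1C, the rise of Peg3 was lost without either control of either stage (up to 0.107), and that of Zim1 without MII control replicate 2 or either L1C control (up to 0.168). From L1C to E2C, Phlda2 was lost without L1C control replicate 2 (0.164), Peg10 without either L1C control or E2C control replicate 3 (up to 0.111), Kcnq1 without either L1C control, L1C knockout replicate 2 or E2C control replicate 1 or 3 (up to 0.186), and Mcts2 without any of 8 of 11 libraries (up to 0.282). From E2C to L2C, Airn and Mest were lost without L2C control replicate 1 (0.077 and 0.079), Cdkn1c, Inpp5f and Plagl1 without L2C control replicate 2 (0.074, 0.058 and 0.099), Mcts2 without L2C control replicate 2 or E2C control replicate 3 (up to 0.153), and Snrpn without either L2C control or E2C control replicate 1 or 3 (up to 0.161).

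**Figure D2:**
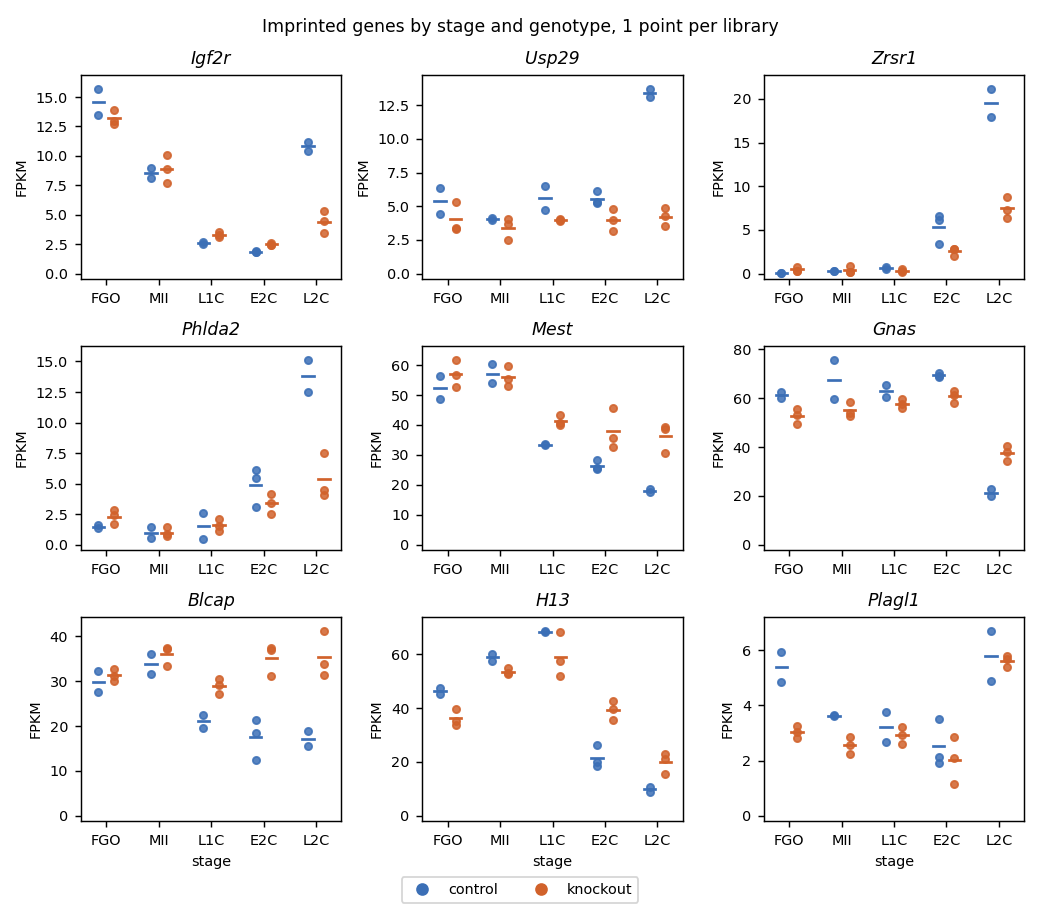
FPKM of 9 imprinted genes by stage, with 1 point per library, control in blue and knockout in orange, and a bar at each group's mean. At L2C the knockout points of Igf2r, Usp29, Zrsr1 and Phlda2 lie below all control points and those of Mest, Gnas, Blcap and H13 lie above them.

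In knockout FGO, 20 members were tested and 1 passed, where 8.34% of all 11560 genes tested did. Plagl1, the gene of a zinc finger transcription factor (chr10:13060504-13131694, mm10), was at 4.86 and 5.92 FPKM in control FGO and 3.25, 3.04 and 2.83 FPKM in knockout FGO. The groups did not overlap, and the fitted log2 difference was -0.66 ± 0.12 (SE; limma, adjusted p = 0.029). The adjusted p passed 0.05 when either control or knockout replicate 2 or 3 was left out (up to 0.209). The cumulus and granulosa marker sum given above was also lower in knockout FGO, mostly through Cyp19a1 (5.16 to 6.72 against 1.52 to 1.87 FPKM), and its part in the result was not tested. The groups did not overlap for 6 of the 20 members, 1 above and 5 below control, where they did not overlap for 46.5% of all genes. In MII eggs, 0 of 20 members passed, where 12.0% of all genes did. At the looser unadjusted p under 0.05 in limma there were 5, and the share of all genes at it is not given here. The groups did not overlap for 8 of the 20, 2 above and 6 below control, against 47.0% of all genes. Plagl1 there was at 3.65 and 3.61 FPKM in control and 2.86, 2.25 and 2.57 FPKM in knockout eggs (log2 difference -0.38 ± 0.12, adjusted p = 0.097), again without overlap. Over the members tested, the log2 difference ran from -0.66 to 0.40 in FGO and from -0.38 to 0.40 in MII, with a median standard error of 0.11 and 0.12.

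After fertilisation, Mest and Blcap were the imprinted genes that were higher in knockout L1C embryos, 2 of 21 tested against 14.9% of all genes (6.22% higher). Of the 21, 9 lay wholly above and 7 wholly below control, where 26.3% and 23.3% of all genes did so. Mest, the gene of a hydrolase-fold protein of mesoderm and placenta (chr6:30723547-30748465), was at 33.2 and 33.5 FPKM in control and 40.6, 40.0 and 43.2 FPKM in knockout L1C embryos. Every knockout library lay above both controls, with a log2 difference of 0.30 ± 0.07 (adjusted p = 0.029). Blcap, the gene of a small membrane protein linked to apoptosis (chr2:157556362-157571274), was at 22.4 and 19.7 FPKM in control and 30.4, 29.1 and 27.3 FPKM in knockout L1C embryos (0.44 ± 0.09, adjusted p = 0.019). Each call was lost without either control and without knockout replicate 2, and that of Mest also without knockout replicate 3 (adjusted p up to 0.186 for Mest and 0.174 for Blcap).

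In E2C embryos, 2 of 25 members passed, both higher in the knockout, where 10.1% of all genes passed and 4.25% were higher. Of the 25, 6 lay wholly above and 6 wholly below control, where 17.5% and 16.3% of all genes did so. Blcap was at 18.6, 12.5 and 21.3 FPKM in control and 37.0, 37.5 and 31.2 FPKM in knockout embryos, with no overlap and a log2 difference of 1.00 ± 0.19 (adjusted p = 0.018). H13, which encodes signal peptide peptidase (chr2:152669461-152708670), was at 18.6, 19.8 and 26.2 FPKM in control and 39.6, 42.7 and 35.6 FPKM in knockout embryos (0.85 ± 0.16, adjusted p = 0.015). The call of Blcap was lost without control replicate 1 or knockout replicate 2 (adjusted p up to 0.057) and that of H13 without control replicate 1 or 2 (up to 0.064). Both genes host an intronic, paternally expressed gene: Nnat lies inside Blcap on the opposite strand, and the retrogene Mcts2 lies inside H13 on the same strand. Nnat did not exceed 0.822 FPKM in any E2C library, and Mcts2 was at 2.46, 3.92 and 0.724 FPKM in control and 1.51, 0.365 and 0.630 FPKM in knockout embryos, with overlapping groups and adjusted p = 0.23.

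At L2C, 12 of 24 members tested passed, 8 higher and 4 lower in the knockout, and 38.5% of all 12718 genes tested passed at this stage (19% higher and 19.5% lower). The members' median log2 difference was 0.11, against 0.03 over all genes. The 4 that were lower were Usp29, Zrsr1, Phlda2 and Igf2r. Among the 8 that were higher, Blcap, Mest, H13 and Gnas passed in every fit with 1 library left out and under every alternative setting, as did the 4 that were lower. The groups did not overlap for 16 of the 24 members, 10 above and 6 below control, nor for 62.2% of all genes.

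Usp29, the gene of a deubiquitinase-family protein that shares its promoter with Peg3 (chr7:6730578-6967219), was at 13.1 and 13.7 FPKM in control L2C embryos and 3.51, 4.25 and 4.86 FPKM in knockout L2C embryos. The lowest control was above the highest knockout library, and the log2 difference was -1.47 ± 0.17 (adjusted p = 0.00066). Its neighbour Peg3 was at 4.41 and 3.73 FPKM in control and 5.25, 4.71 and 4.18 FPKM in knockout embryos, with overlapping groups (0.17 ± 0.19, adjusted p = 0.50). Zrsr1, the gene of a splicing-factor-related protein within an intron of Commd1 (chr11:22972005-22976496), was at 21.1 and 17.9 FPKM in control and 7.28, 6.36 and 8.82 FPKM in knockout embryos (-1.28 ± 0.17, adjusted p = 0.0010). Its host Commd1, a gene of copper and membrane-protein trafficking on the opposite strand, was at 1.94 and 1.49 FPKM in control and 2.14, 6.29 and 1.39 FPKM in knockout embryos, with overlap. Phlda2, a growth-limiting gene of the placenta expressed from the maternal allele (chr7:143501545-143503150), was at 12.5 and 15.1 FPKM in control and 4.46, 4.07 and 7.54 FPKM in knockout embryos (-1.26 ± 0.24, adjusted p = 0.0050). Igf2r (chr17:12682406-12769664) was at 11.2 and 10.4 FPKM in control and 4.51, 5.28 and 3.46 FPKM in knockout embryos (-1.14 ± 0.19, adjusted p = 0.0029). Airn, the paternal non-coding RNA that overlaps Igf2r on the opposite strand, did not exceed 0.818 FPKM in any L2C library.

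The 8 genes that were higher at L2C began with those abundant in the oocyte. Mest was at 17.4 and 18.4 FPKM in control L2C embryos and 39.4, 38.7 and 30.7 FPKM in knockout L2C embryos, with no overlap (0.97 ± 0.14, adjusted p = 0.0013). Gnas, the locus of the stimulatory G protein alpha subunit (chr2:174284320-174346744), was at 20.02 and 22.71 FPKM in control and 40.4, 38.0 and 34.4 FPKM in knockout embryos (0.79 ± 0.12, adjusted p = 0.0018). Blcap was at 15.5 and 18.9 FPKM in control and 31.3, 41.1 and 34.0 FPKM in knockout embryos (1.00 ± 0.15, adjusted p = 0.0016). H13 was at 8.84 and 10.65 FPKM in control and 15.4, 22.94 and 21.05 FPKM in knockout embryos (0.94 ± 0.19, adjusted p = 0.0057). For these 4 genes the knockout libraries lay above every control library. Cdkn1c, which encodes the cell cycle inhibitor p57 and is maternally expressed, was at 9.24 and 12.2 FPKM in control and 17.4, 15.1 and 17.7 FPKM in knockout embryos (0.61 ± 0.16, adjusted p = 0.017). Inpp5f, a phosphoinositide phosphatase gene, was at 5.88 and 4.24 FPKM in control and 8.57, 8.78 and 8.28 FPKM in knockout embryos (0.67 ± 0.18, adjusted p = 0.018). Impact, a regulator of the translation kinase GCN2, was at 0.757 and 2.02 FPKM in control and 3.45, 2.85 and 4.15 FPKM in knockout embryos (0.95 ± 0.28, adjusted p = 0.029). Copg2, a coatomer subunit gene next to Mest, was at 7.75 and 8.71 FPKM in control and 10.2, 14.2 and 12.0 FPKM in knockout embryos (0.50 ± 0.17, adjusted p = 0.049). The calls of these last 4 rested on single libraries. Cdkn1c lost it without control replicate 1 or knockout replicate 3 (adjusted p up to 0.123), Inpp5f without control replicate 2 or knockout replicate 2 or 3 (up to 0.118), Impact without control replicate 1 or knockout replicate 1 or 3 (up to 0.191), and Copg2 without either control or knockout replicate 2 or 3 (up to 0.208).

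By class, 5 of the 9 isoform- or tissue-restricted genes tested at L2C were higher and 0 lower, against 2 higher and 2 lower of 10 paternally expressed genes and 1 higher and 2 lower of 5 maternally expressed genes, where 19% of all genes were higher and 19.5% lower. The difference between classes was not tested. The 12 members that did not pass had log2 differences from -0.63 (Nnat, adjusted p = 0.089) to 0.87 (Ascl2, adjusted p = 0.051). Ascl2, a trophoblast transcription factor gene, was at 0 and 0.321 FPKM in control and 1.75, 1.06 and 0.624 FPKM in knockout embryos, levels near the low end of the table. Snrpn, at 12.4 and 13.3 FPKM in control and 12.6, 11.1 and 13.5 FPKM in knockout embryos, and Grb10, at 7.54 and 10.0 FPKM in control and 8.73, 7.41 and 11.5 FPKM in knockout embryos, overlapped fully. Other measures of the libraries moved with genotype at L2C. The sum of 6 oocyte markers was 447 and 469 FPKM in control and 733 to 861 FPKM in knockout embryos, the RNA Gm23935 took 20.2 to 23.1% of all FPKM in control and 15.3 to 17.3% in knockout libraries, and their part in the results was not tested. With values rescaled to TPM, which moved the median of all genes by 0.13, 10 members were higher and 4 lower. Stranded libraries were made, but the strand setting of the counting is not given in the sources used here. Overlapping pairs are therefore uncertain: 21.2% of the 50-base words in Mest exons also lie in Copg2 exons, and 24.9% of those of Cdkn1c lie in the antisense gene Gm44732.

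**Figure D3:**
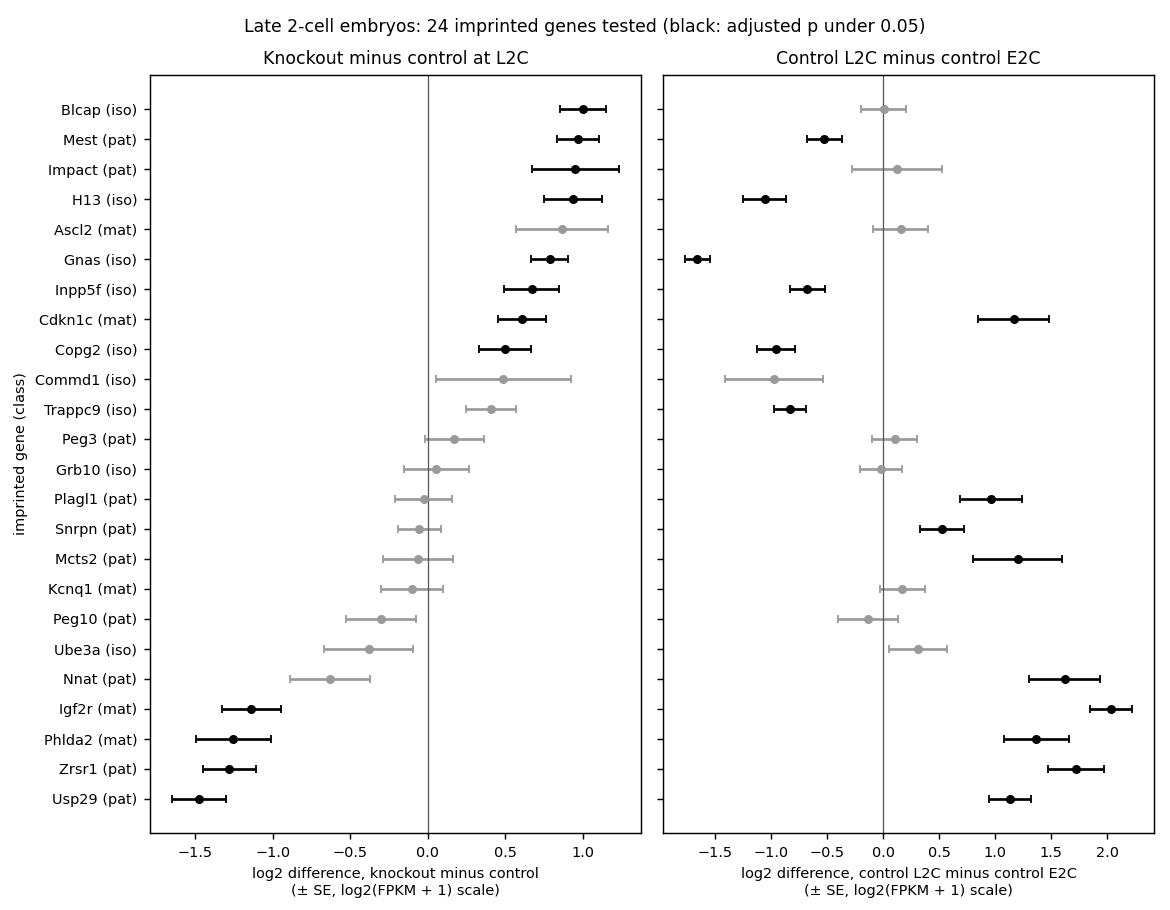
Log2 differences with standard errors for the 24 imprinted genes tested at L2C, as knockout minus control at L2C (left) and control L2C minus control E2C (right); black points have an adjusted p under 0.05. Both panels use the same control L2C libraries, so their values are not independent. Usp29, Zrsr1, Phlda2 and Igf2r are at the bottom of the left panel and Blcap and Mest at the top.

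The control change from E2C to L2C and the knockout difference at L2C share the control L2C libraries, so they are given side by side and not as separate evidence. The 4 genes lower in the knockout had control rises of 1.13 (Usp29), 1.72 (Zrsr1), 1.37 (Phlda2) and 2.04 (Igf2r). In knockout embryos Usp29 was at 4.80, 3.96 and 3.15 FPKM at E2C and 3.51, 4.25 and 4.86 FPKM at L2C, so the ranges overlap. Igf2r in knockout embryos went from 2.57, 2.46 and 2.41 FPKM at E2C to 4.51, 5.28 and 3.46 FPKM at L2C, all below the control L2C values. Zrsr1 in knockout embryos was at 1.98, 2.85 and 2.80 FPKM at E2C and 6.36 to 8.82 FPKM at L2C, and Phlda2 at 4.19, 3.43 and 2.51 FPKM at E2C and 4.07 to 7.54 FPKM at L2C. Among the genes higher in the knockout, Gnas fell in control from 68.9, 70.4 and 69.2 FPKM at E2C to 20.02 and 22.71 FPKM at L2C, while knockout embryos held 58.2, 61.2 and 62.9 FPKM at E2C and 34.4 to 40.4 FPKM at L2C. Mest, H13, Inpp5f and Copg2 also fell in control over this step, whereas Cdkn1c rose in control by 1.17 and Blcap changed by 0.00 ± 0.20 (adjusted p = 0.99).

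Whether the knockout difference itself changed between successive stages was tested by an interaction term. Between E2C and L2C, 4 of 27 members passed, where 16.7% of all genes did (8.81% upward and 7.89% downward). The knockout difference became lower for Igf2r (-1.41 ± 0.25, adjusted p = 0.0035) and Usp29 (-1.06 ± 0.26, adjusted p = 0.015), and higher for Gnas (0.98 ± 0.14, adjusted p = 0.0014) and Trappc9 (0.67 ± 0.19, adjusted p = 0.033). Trappc9, a gene of vesicle trafficking, was at 13.5, 12.9 and 13.3 FPKM in control and 10.9, 10.4 and 11.1 FPKM in knockout E2C embryos, and at 6.58 and 7.38 FPKM in control and 8.46, 10.9 and 9.50 FPKM in knockout L2C embryos. The knockout libraries of Trappc9 lay below control at E2C and above control at L2C. The calls of Igf2r and Gnas held without any single library. That of Usp29 was lost without either L2C control (adjusted p up to 0.069) and that of Trappc9 without any E2C control, either L2C control, E2C knockout replicate 2 or L2C knockout replicate 2 or 3 (up to 0.134). The call of Usp29 was also lost in 1 fit of all libraries with stage weights (0.082) and that of Trappc9 with the replicate number as a block (0.101). Between FGO and MII, MII and L1C, and L1C and E2C, 0 members passed in limma, where 0.00%, 0.0508% and 0.337% of all genes passed. At the looser unadjusted p under 0.05 there were 1, 3 and 3 members. The share of all genes at that looser threshold is not given here, so these counts have no background.

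The genes that set and keep imprints were a list of 19. Of these, 1 was higher and 1 lower in knockout FGO, 0 and 2 in MII, 2 and 1 in L1C, 4 and 2 in E2C, and 7 and 5 in L2C (19 tested at the 2-cell stages and 18 before). Over all genes, 8.34%, 12.0%, 14.9%, 10.1% and 38.5% passed at these stages in turn. Atrx was the lower gene in FGO (-0.63 ± 0.06; limma, adjusted p = 0.0033) and in L1C (-0.72 ± 0.08, adjusted p = 0.0018). Arid4a and Kdm1b were those lower in MII. At L2C, Dnmt3l, Hells, Kdm1b, Tet3 and Uhrf1 were among those higher, and Arid4b and Ctcf among those lower. The values of these genes under the alternative settings are not given here. Dnmt3a, the de novo DNA methyltransferase of the oocyte, was at 53.5 to 65.1 FPKM in control and 88.5 to 104.3 FPKM in knockout FGO (log2 difference 0.67 ± 0.11, adjusted p = 0.019). In MII eggs, at 60.6 to 64.3 FPKM in control and 39.7 to 86.9 FPKM in knockout libraries, it overlapped (-0.19 ± 0.30, adjusted p = 0.71). Without knockout replicate 3 it was lower in knockout eggs (-0.52, adjusted p = 0.017). It was again higher in knockout L1C (0.52), E2C (0.96) and L2C embryos (1.26 ± 0.24, adjusted p = 0.0052). Its call in FGO was lost without either control or knockout replicate 2 or 3 (up to 0.175), that in L1C without control replicate 1 (0.079) and that in E2C without control replicate 1 or 3 or knockout replicate 2 or 3 (up to 0.088). Zfp57, whose protein binds the hexamer shown above, was at 160.7 and 171.1 FPKM in control and 358 to 417 FPKM in knockout L2C embryos (1.24 ± 0.09, adjusted p = 0.00015). Trim28, the partner that ZFP57 recruits, was lower at 30.7 to 31.7 FPKM in knockout against 45.0 and 53.3 FPKM in control L2C embryos (-0.64 ± 0.11, adjusted p = 0.0032). Zfp445, another imprint-protecting zinc finger gene, was at 15.2 FPKM in both controls and 6.28 to 9.20 FPKM in the knockouts (-0.90 ± 0.17, adjusted p = 0.0051). The median of the 19 at L2C was 0.31, against 0.03 over all genes. Of 10 genes with non-canonical, H3K27me3-dependent imprints, 3 could be tested at L2C and 1 passed, the lower Gab1 (-1.27 ± 0.23, adjusted p = 0.0036).

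Among the members tested at E6.5, many differed between EPI and the extraembryonic lineages, while between EXE and VE the share was near that of all genes. A gene was tested if any 2 of the 11 libraries reached 1 FPKM, so it could enter through the lineage where it was high. Igf2, Airn, Peg10 and Dlk1 had no EPI library at 1 FPKM. Snurf, Ndn, Magel2, Mkrn3 and Zdbf2 had no VE library at that level. All of these are among the calls between VE and EPI, and entry and call are not independent for them. Over both genotypes, 21 of 37 members differed between VE and EPI (13 higher and 8 lower in VE, where 38.4% of all genes differed, 16.8% higher and 21.6% lower), 16 between EXE and EPI (8 and 8, against 19.6%, 9.13% and 10.4%), and 10 between EXE and VE (5 and 5, against 22.6%, 11.3% each way). H19 had the largest log2 difference from EPI of all members in both VE and EXE. It was at 8.26, 1.41, 7.98 and 2.05 FPKM in EPI (controls, then knockouts, as in the following sentences), 816, 1639.8, 735 and 1308 FPKM in VE, and 723, 696 and 239 FPKM in EXE. The lowest extraembryonic library was far above the highest EPI library, with a log2 difference of 7.74 ± 0.55 for VE and 6.77 ± 0.61 for EXE against EPI. Igf2, the paternally expressed growth factor gene next to it, did not exceed 0.036 FPKM in EPI and was at 16.9, 50.3, 10.2 and 28.3 FPKM in VE and 51.4, 45.1 and 21.1 FPKM in EXE. Of the 50-base words in Igf2 exons, 61.2% also lie in Gm49394, so reads could be assigned to either gene. Phlda2 was at 20.6, 39.3, 38.7 and 49.9 FPKM in EPI, 385, 351, 208 and 359 FPKM in VE, and 1376, 1242 and 950.2 FPKM in EXE. The 3 lineages did not overlap for Phlda2, and each pair differed (3.13, 5.07 and 1.94, adjusted p at most 0.0014). Cdkn1c was at 75.1, 65.1 and 52.1 FPKM in EXE, above all 8 EPI and VE libraries, which held 8.11 to 20.7 FPKM. Ascl2 was at 55.7, 56.5 and 59.96 FPKM in EXE, 1.33 to 2.30 FPKM in EPI and 0.203 to 1.22 FPKM in VE. Peg10, a retrotransposon-derived gene of the placenta, was at 0.254 FPKM or less in EPI, at 8.03 to 25.5 FPKM in VE and at 9.38 to 13.1 FPKM in EXE.

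Of 7 members in the Prader-Willi and Angelman syndrome cluster, 5 were lower in VE than in EPI, Ube3a did not pass in any lineage comparison and Peg12 was too low to be tested. Snrpn, the gene of a spliceosomal SmN protein, was at 445, 878, 252 and 639.7 FPKM in EPI, 6.55, 5.20, 13.3 and 4.93 FPKM in VE, and 68.8, 45.0 and 109.0 FPKM in EXE. The lineages did not overlap, with log2 differences of -5.98 ± 0.43 for VE and -2.83 ± 0.49 for EXE against EPI. Snurf, whose annotated exons are wholly shared with Snrpn so that reads could be assigned to either, was at 15.9 to 30.5 FPKM in EPI and at most 5.27 FPKM elsewhere. Ndn and Magel2, growth and neuronal genes of the same cluster, were lower in both VE and EXE than in EPI (log2 differences of -2.45 and -2.15 for Ndn, -1.66 and -1.60 for Magel2), and Mkrn3 was lower in VE (-0.63). Nnat, which encodes a membrane proteolipid, was at 22.5, 19.4, 20.6 and 32.7 FPKM in EPI and at most 2.53 FPKM in the other lineages. Zdbf2 was lower in VE and in EXE than in EPI (both -1.39), at 1.59 to 2.68 FPKM in EPI.

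Further members were higher in VE than in EPI, and some of these in EXE as well. Ddc, which encodes dopa decarboxylase, was at 35.8, 52.6, 61.7 and 59.05 FPKM in VE and 1.40 to 8.71 FPKM in the other libraries. Sgce, a sarcoglycan gene that shares its control region with Peg10, was at 36.5 to 54.7 FPKM in VE, 7.75 to 14.9 FPKM in EXE and 1.85 to 4.04 FPKM in EPI. Dlk1, which encodes a Notch-ligand-like membrane protein, was at 20.3, 6.66, 7.08 and 2.40 FPKM in VE and at most 2.895 FPKM elsewhere. Inpp5f was at 12.3 to 27.2 FPKM in VE, 6.24 to 9.97 FPKM in EPI and 2.32 to 2.65 FPKM in EXE. Peg3 (7.62 to 38.6 FPKM in VE, 2.64 to 5.79 FPKM in EPI), H13 (33.3 to 50.7 FPKM in VE, 15.5 to 23.8 FPKM in EPI), Igf2r (1.70 ± 0.38), Airn (1.98 ± 0.33) and Slc22a18 (1.71 ± 0.29) were also higher in VE than in EPI. Slc22a18 and Sgce were higher in EXE than in EPI too (1.80 ± 0.33 and 1.49 ± 0.29). In EXE, Peg3 was at 7.24 to 11.6 FPKM, H13 at 23.7 to 29.3, Igf2r at 2.55 to 5.42 and Airn at 0.547 to 3.41 FPKM. None of these last genes passed between EXE and EPI. Gnas was lower in EXE, at 106.6 to 136.5 FPKM, than in EPI (202 to 336 FPKM) and VE (210.4 to 361 FPKM). Grb10, given below by genotype, was higher in EXE than in VE (2.01 ± 0.49). Several calls rested on single libraries: Ascl2 and Inpp5f between VE and EPI were lost without EPI control replicate 1 or VE knockout replicate 2 (adjusted p up to 0.067 and 0.064), Mkrn3 also without VE control replicate 1 or VE knockout replicate 1 (up to 0.078), and, between EXE and VE, Dlk1 without VE or EXE knockout replicate 1 (up to 0.061) and Grb10 without VE control replicate 2 or EXE knockout replicate 1 (up to 0.056).

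The remaining abundant members showed no difference between lineages past the threshold. Meg3, the long non-coding RNA of the Dlk1 cluster, was at 125, 55.0, 301 and 43.4 FPKM in EPI, 94.5 to 184 FPKM in VE and 25.5 to 58.5 FPKM in EXE. Mirg, the microRNA host RNA of the same cluster, was at 3.12 to 38.9 FPKM in EPI, 13.1 to 52.9 FPKM in VE and 3.16 to 12.4 FPKM in EXE, and Rian, its snoRNA host, at 3.87 to 20.8 FPKM over all 11 libraries. In EPI, replicate 1 of each genotype held more Meg3 and Mirg than replicate 2. Commd1 (57.8 to 156.8 FPKM), Mcts2 (35.7 to 57.3 FPKM), Ube3a (6.02 to 25.0 FPKM) and Impact (3.90 to 20.3 FPKM) were present in every library.

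**Figure D4:**
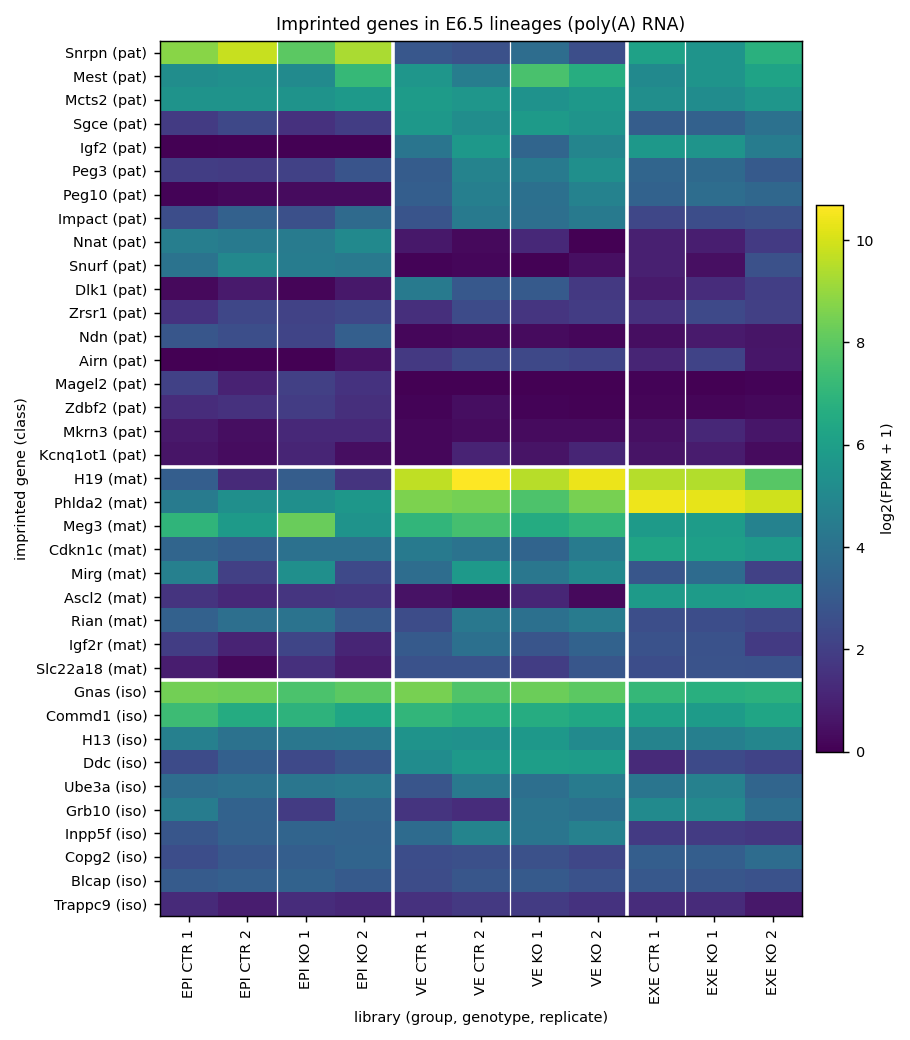
Heatmap of log2(FPKM + 1) for the 37 imprinted genes that reached 1 FPKM in at least 2 E6.5 libraries, with 1 column per library (CTR control, KO knockout, then the replicate number) and genes grouped by class as pat, mat and iso. H19 and Phlda2 are bright in VE and EXE, Snrpn in EPI, and Ascl2 in EXE.

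Between genotypes at E6.5, 0 of 37 members passed in any lineage (limma, adjusted p = 1 throughout). At the looser unadjusted p under 0.05 there were 1 member in EPI, 3 in VE and 0 in EXE, and the share of all genes at it is not given here. Over all 13914 genes tested, 0.00% passed in EPI, 0.00719% in VE and 0.00% in EXE, so this design made few calls of any kind. The median standard error of a member's log2 difference was 0.42 in EPI and VE and 0.51 in EXE, where the lone control is assumed to vary like the other groups. The members' median log2 differences were 0.22 in EPI, 0.06 in VE and 0.02 in EXE, against 0.06, 0.04 and -0.02 over all genes. In VE, 3 of the 37 members lay wholly above and 2 wholly below control, where 14.4% and 9.87% of all genes did so. The largest value in any lineage belonged to Grb10 in VE. Grb10, an adaptor that restrains insulin and IGF receptor signalling and is maternally expressed outside neurons (chr11:11930508-12038683), was at 2.01 and 1.58 FPKM in control VE and 16.3 and 14.5 FPKM in knockout VE. The knockout libraries lay above both controls, with a log2 difference of 2.56 ± 0.62 (unadjusted p = 0.0022, adjusted p = 1). In EPI Grb10 was at 21.1 and 9.18 FPKM in control and 2.58 and 11.02 FPKM in knockout libraries, and in EXE at 33.3 FPKM in the control and 31.4 and 13.6 FPKM in the knockouts. Mest was at 47.8 and 22.2 FPKM in control VE and 194 and 100.8 FPKM in knockout VE, without overlap (2.07 ± 0.64, unadjusted p = 0.0098, adjusted p = 1). In EPI it was at 36.6 and 39.8 FPKM in control and 34.0 and 142 FPKM in knockout libraries, and in EXE at 32.4 FPKM in the control and 45.1 and 73.3 FPKM in the knockouts. Dlk1 in VE, with the values given above, had a log2 difference of -1.29 ± 0.57 (unadjusted p = 0.049, adjusted p = 1), with overlapping groups. Mkrn3 in EPI was at 0.669 and 0.328 FPKM in control and 1.33 and 1.37 FPKM in knockout libraries (0.66 ± 0.27, unadjusted p = 0.034, adjusted p = 1).

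Marker levels differed between the VE libraries. The summed level of 6 epiblast markers was 47.9 to 108.7 FPKM in control and 108.4 to 159.0 FPKM in knockout VE, that of 6 EXE markers 12.6 to 14.0 and 20.02 to 28.63 FPKM, and that of 4 primitive streak and mesoderm markers 13.6 to 14.5 and 24.04 to 35.11 FPKM. Of the markers named singly above, Pou5f1 was listed at 0 in both knockout VE libraries, unlike the sum of its list. Elf5 was at 0.238 and 0.381 FPKM in knockout VE against 135 to 184 FPKM in EXE. Hbb-bs, a blood marker, was at 15.6 FPKM in 1 knockout VE library and at 0 in the other VE libraries. With 1 VE library left out, the Grb10 difference in VE lay between 2.45 and 2.67 and that of Mest between 1.53 and 2.60. Leaving out an EPI or EXE library cannot move these differences. A term for the Y-linked signal was added after the data were seen. Each VE group had 1 library with that signal and 1 without, so the term could not move these differences. A test of whether the knockout difference differed between VE and EPI passed for 0 of 37 members in limma, where 0.00719% of all genes passed. At the looser unadjusted p under 0.05 there was 1 member, and the share of all genes at it is not given here.

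**Figure D5:**
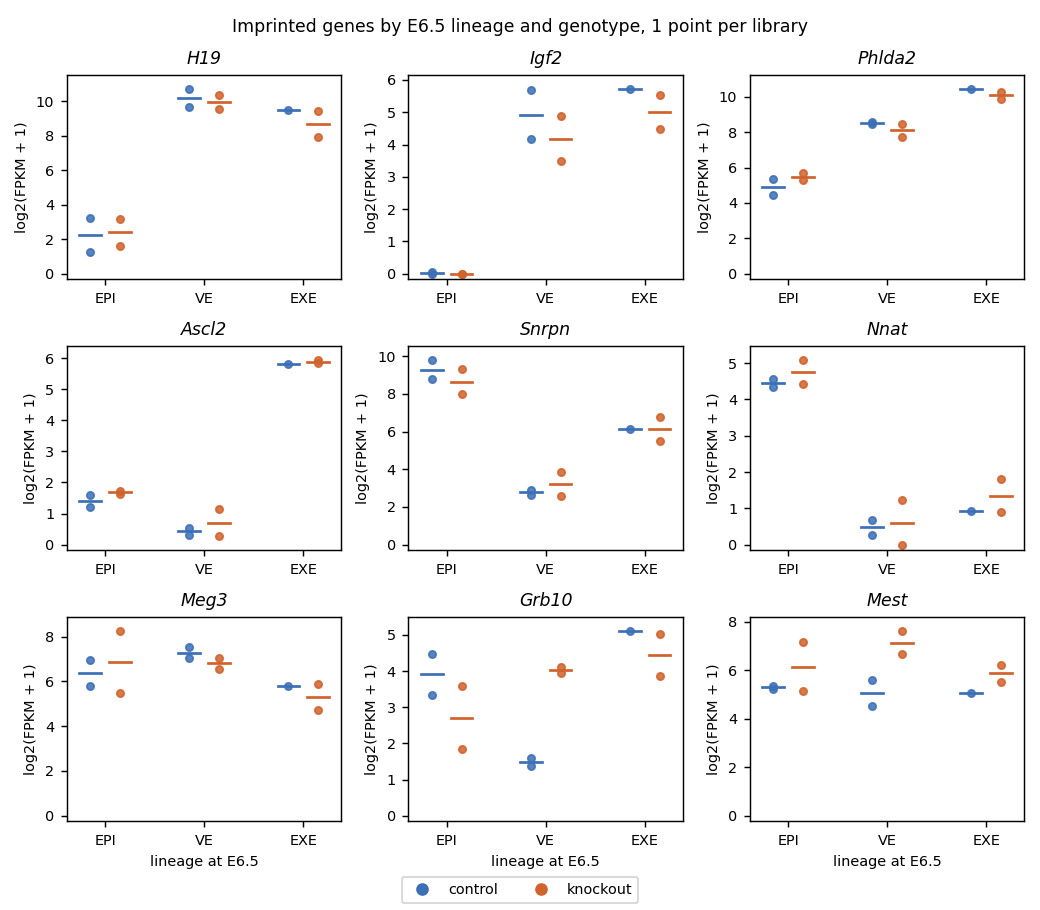
Log2(FPKM + 1) of 9 imprinted genes by E6.5 lineage, with 1 point per library, control in blue and knockout in orange, and a bar at each group's mean (EXE has 1 control library). H19, Igf2 and Phlda2 are low in EPI, Snrpn and Nnat are high there, and Grb10 and Mest have both knockout VE points above both control VE points.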

How the data were processed

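RNA-seq was measured in 37 mouse libraries, 26 of total RNA and 11 of poly(A) RNA. Per the submitters' processing notes, the tools were Trim Galore 0.6.6, STAR 2.7.9 and StringTie 2.1.7 on mm10, with no role or order given. The deposited values are FPKM per gene; 1 epiblast column holds a single value just under 0 and was recorded with the unit other, and that deposited value was set to 0. The annotation and strand setting are not given in the sources used here. Of the gene IDs, 54349 match GENCODE M21 with their version, and coordinates come from it. Low values came out as whole multiples of a step in only 43.4 to 76.6% of cases per library (tolerance 0.1), so reads were not recovered and depth is unknown. The 2 tables were normalized apart and are not compared.

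limma 3.58.1 (R 4.3.3; lmFit, eBayes with trend) was run on log2(FPKM + 1). A gene entered a fit if 2 or more of its libraries reached 1 FPKM, with Benjamini-Hochberg adjustment over all genes tested and a threshold of 0.05. The pseudocount shrinks the fold change of a gene with low FPKM. Genotype was fitted within each early stage alone; stage changes and interactions on pairs of stages with 4 groups; E6.5 on all 11 libraries with 6 groups. Alternatives were a pseudocount of 0.1, no filter, TPM scaling, median centring, the replicate number as a block, 1 fit of all early libraries with or without stage weights, a fit of EPI and VE alone, each library left out in turn and, added after seeing the data, a term for Y-linked signal (list sum above 1 FPKM) at E6.5. The method was tested on simulated data. Named are members past the threshold by genotype and, at E6.5, members with at least 20 FPKM in 1 library; Trappc9, Peg3 and others outside this rule were named after their values were seen. The members and lists were chosen with earlier results of these data known. Allele-specific expression was not analysed here. Figures were drawn with matplotlib 3.10.9.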

Additional observations from a re-analysis of the deposited data

Results flagged for a closer look

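For 4 imprinted genes, the knockout difference was not the same in early and late 2-cell embryos, by limma's interaction term with adjustment over all genes tested (16.7% of all genes passed this test). The change in the log2 difference from E2C to L2C was -1.41 for Igf2r, -1.06 for Usp29, 0.98 for Gnas and 0.67 for Trappc9. For Gnas and Trappc9 every knockout library lay below every control library at E2C and above at L2C. For Igf2r the order was the opposite, above at E2C and below at L2C, and for Usp29 the knockout lay below control at both stages. The call of Usp29 was lost without either L2C control, and that of Trappc9 without any of 8 of the 11 libraries.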

How the results depend on the processing

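Counts here are members past the threshold. No member past the threshold changed direction under any alternative, nor did Dnmt3a, Zfp57, Trim28, Zfp445 or Gab1 where they passed it. The splits of rising and falling members between stages did change with the scaling, as given above. Of the named values that did not pass, the control change of Blcap from E2C to L2C was -0.17 with TPM scaling, -0.23 with median centring and -0.15 with the replicate block, and -0.21 to 0.16 with 1 library left out, and the MII difference of Dnmt3a was -0.52 to 0.032 with 1 library left out. By genotype, FGO had 1, and 0 with no filter, with a replicate block and in 1 fit of all libraries, and 2 with stage weights; MII had 0, and 4 with stage weights; L1C had 2, and 0 with no filter, 1 in 1 fit of all libraries and 5 with stage weights; E2C had 2, and 0 with no filter and 7 in 1 fit of all libraries. At L2C the count of 12 went to 8 with no filter and 8 with the replicate block, both without Cdkn1c, Inpp5f, Impact and Copg2. The control change from FGO to MII had 1, and 2 with a pseudocount of 0.1, with no filter, with TPM scaling and with stage weights, and 0 with the replicate block. The change from MII to L1C had 5, and 10 with median centring, 2 with the block and 3 in 1 fit of all libraries; that from L1C to E2C had 8, and 3 with the block; that from E2C to L2C had 16, and 6 with the block. The interaction from L1C to E2C had 0, and 1 with TPM scaling, with median centring, in 1 fit of all libraries and with stage weights; that from E2C to L2C had 4, and 3 with the block and 7 in 1 fit of all libraries. The cause of these shifts was not tested.

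Leaving out each library in turn gave 0 to 1 in FGO, 0 to 4 in L1C, 0 to 3 in E2C, 9 to 11 at L2C, and for the control changes 0 to 2, 3 to 7, 4 to 9 and 12 to 17. The interactions gave 0 to 1 from L1C to E2C and 2 to 4 from E2C to L2C, and the lineages 18 to 22 (VE against EPI), 16 to 18 (EXE against EPI) and 9 to 13 (EXE against VE). Of 17 genotype calls on members, 8 held in every fit with 1 library left out, and 8 under every other alternative; of 30 control stage calls 16 and 11, of 4 interaction calls 2 and 2, and of 47 lineage calls 42 and 43.

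The replicate numbers were not taken to pair libraries. Same-numbered libraries of the 2 genotypes had correlations of deviations from -0.08 to 0.14 in the early table. At E6.5 these were 0.42 in VE and 0.59 in EPI, and such libraries held opposite Y-linked signal. Same-numbered libraries of 1 genotype held Y-linked signal in the same way in each lineage, with correlations from -0.38 to 0.51. In groups of 2 libraries the deviations mirror each other, so the 2 pairs of any such comparison at E6.5 give the same value. At E6.5 the block gave 0 members by genotype and 20, 16 and 9 between lineages, and a term for the Y-linked signal, chosen after seeing the data, gave 0 by genotype and 21, 16 and 10. With a replicate block, all genes called at L2C by genotype went from 4893 to 3702 and in FGO from 964 to 105. Precision is limited by 2 or 3 libraries a group, by a lone EXE control, and by unknown depth.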
